A study of Zea mays with 12 samples.

Results

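Genes for 3 proteins that carry sugar toward starch in the maize kernel are described here: sucrose synthase (sus2), the small subunit of ADP-glucose pyrophosphorylase (bt2 and agpsemzm) and the plastid ADP-glucose carrier (bt1). The genes were taken by name, as every probe set annotated with 1 gene whose symbol or RefSeq synonym is sus2, bt2, agpsemzm or bt1. RefSeq lists sus2 as LOC542091, bt2 as LOC541902, agpsemzm as LOC542072 and bt1 as LOC732804. They are 4 of the 1108 genes to which the platform annotation ties a probe set with no other gene. Probe sets annotated with more genes or with none were not searched. Each of the 4 genes had 1 such probe set of its own, so 4 of 17621 probe sets are described, and all 4 were among the 10708 bright enough to be tested.

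Sucrose synthase splits the sucrose that arrives from the leaves into fructose and UDP-glucose. ADP-glucose pyrophosphorylase, an enzyme of large and small subunits, then makes ADP-glucose, the sugar donor of starch synthesis, and in cereal endosperm much of it is made in the cytosol. The carrier encoded by bt1, known from the brittle kernels of its mutants, brings that ADP-glucose into the plastid, where starch synthases use it.

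Messenger RNA was measured on 12 Affymetrix arrays of maize endosperm, the tissue that feeds the embryo, taken 13 days after pollination. The inbred lines B73 and Mo17 and their reciprocal hybrids B73xMo17 and Mo17xB73 were represented by 3 arrays each, from field-grown plants. The replicate number stands for 1 of 3 crossing dates, with the crosses of all genotypes on a date made close to one another. Each array held RNA pooled from 6 ears, with 5 endosperms an ear according to the design text and 6 an ear (36 in all) according to the growth protocol, so spread between kernels and between ears was not measured. In endosperm 2 genome copies come from the mother and 1 from the father, and the hybrids carry the same alleles in opposite dosage. Maize convention writes the female parent first; it is followed here, although the labels do not state it.

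Values are MAS5 signal as deposited, with each array scaled to the same median over the brighter probe sets. Replicates 1 and 2 of B73xMo17 were dimmer than all other arrays, with factors of 1.24 and 1.29 against 0.886 to 1.06 elsewhere, and results that rest on them are also given without them. Without scaling, the median of all tested probe sets lay at -0.23 on the log2 scale for B73xMo17 minus Mo17xB73, at -0.14 for B73 minus Mo17 and at -0.34 for B73xMo17 minus Mo17. The summed signal of 7 endosperm marker genes, 6 of them above the floor of 14.8 on every array, ran from 57390 to 64520 in B73, from 37080 to 40310 in Mo17, from 61410 to 66770 in B73xMo17 and from 41470 to 51140 in Mo17xB73. These genes were bt2, sh2, wx1, o2, gz27, gz50 and z1C1_12. Since bt2, sh2, wx1 and o2 are also among the results below, the sum is not separate from those results. Genotype means of gz50 were 9566 in B73 and 1909 in Mo17. Those of gz27 were 10030 and 9341, a difference that did not pass (adjusted p = 0.321, limma). Among 6 embryo marker genes lec1 stayed below the floor on all 12 arrays, and their sums overlapped in all 4 genotypes, between 3070 and 4762. The 8 basal transfer layer genes summed to 1581 to 11300 in B73, 5204 to 19260 in Mo17, 1745 to 7844 in B73xMo17 and 7037 to 21280 in Mo17xB73. The 3 aleurone genes summed to 4021 to 4401, 4669 to 6190, 3629 to 4313 and 4508 to 6477 in the same order of genotypes. Nearly all of that sum was vpp1, with genotype means of 3699 to 5197. Those of cr4 were 172.5 to 215.9, and c1 was below the floor on 8 arrays. In that order again, esr1 of the embryo surrounding region ran from 38.91 to 229.3, 219.8 to 947.9, 108.5 to 291.5 and 427.4 to 777.9. Of 5 genes listed for green tissue, pep1 and psbs1 were below the floor on all 12 arrays, and rbcs1 had genotype means of 27.85 to 44.11. The sum, nearly all of it ppdk1, was 11760 to 13550 in B73, 7589 to 9458 in Mo17, 12870 to 14730 in B73xMo17 and 8914 to 10510 in Mo17xB73. It is thus a value of ppdk1 and is not read as a measure of green tissue. The part of these marker differences in the results below was not tested, and in pooled tissue fewer cells of a type and less RNA per cell cannot be told apart. A sequence difference between the B73 and Mo17 alleles under a probe can also change signal, and it cannot be told apart from a difference in messenger level here.

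Sucrose synthase sus2 had the highest ratio between its highest and lowest genotype means of the 4 genes. Its scaled signal was 2411, 2269 and 2194 in B73 on crossing dates 1, 2 and 3, and 750, 731 and 610 in Mo17. In B73xMo17 it was 1574, 1795 and 1559, and in Mo17xB73 it was 1155, 1275 and 928. No 2 genotypes overlapped, and on every date the order from high to low was B73, B73xMo17, Mo17xB73, Mo17. The means were 2291 ± 110 in B73, 1643 ± 132 in B73xMo17, 1119 ± 176 in Mo17xB73 and 697 ± 75.8 in Mo17 (SD, n = 3).

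The small subunit gene bt2, whose mutants give brittle kernels and whose product belongs to the endosperm enzyme, showed smaller differences. Its scaled signal was 10772, 10506 and 11367 in B73 on dates 1 to 3, and 8282, 9731 and 9366 in Mo17. It was 11589, 12164 and 10911 in B73xMo17, and 9490, 8670 and 9540 in Mo17xB73. The arrays of B73 and B73xMo17 overlapped each other and lay above all arrays of Mo17 and Mo17xB73, which also overlapped. The means were 11555 ± 628 in B73xMo17, 10882 ± 441 in B73, 9233 ± 489 in Mo17xB73 and 9127 ± 754 in Mo17 (SD, n = 3).

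The other small subunit gene, agpsemzm, bears a name used for a form found in the embryo. It gave 3948, 3442 and 3779 in B73 on dates 1 to 3, and 3483, 3161 and 3510 in Mo17. It gave 4145, 4553 and 4664 in B73xMo17, and 3191, 2758 and 3086 in Mo17xB73. All B73xMo17 arrays lay above every array of the other genotypes, while B73 overlapped Mo17 and Mo17 overlapped Mo17xB73. The means were 4454 ± 273 in B73xMo17, 3723 ± 258 in B73, 3385 ± 194 in Mo17 and 3012 ± 226 in Mo17xB73 (SD, n = 3), so the 2 hybrids, not the 2 inbreds, stood at the ends of the order. The summed signal of the embryo marker genes overlapped between the hybrids, at 3678 to 4762 in B73xMo17 and 3070 to 4737 in Mo17xB73. Single markers went different ways. The oleosin gene ole16, the brightest of them, had the same order of genotype means (3097 in B73xMo17, 2992 in B73, 2653 in Mo17 and 2375 in Mo17xB73), with a hybrid difference of 0.38 that did not pass (unadjusted p = 0.0469, adjusted p = 0.11, limma). The embryo marker mlg3 was higher in B73xMo17 than in Mo17xB73 (1.39, adjusted p = 0.0245, limma). Its genotype means ran in another order than those of agpsemzm (174.4 in B73, 113.7 in B73xMo17, 43.42 in Mo17xB73 and 37.86 in Mo17). The markers glb1 (-0.31, adjusted p = 0.118) and vp1 (0.04, adjusted p = 0.91, limma) did not pass. The part of these embryo markers in the agpsemzm result was not tested.

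The carrier gene bt1 had the lowest such ratio of the 4 genes. Its signal was 9802, 9900 and 10889 in B73 on dates 1 to 3, and 8783, 8705 and 9495 in Mo17. It was 10422, 11032 and 10318 in B73xMo17, and 9610, 9023 and 10067 in Mo17xB73. The arrays of B73xMo17 lay above those of Mo17xB73 and those of B73 above those of Mo17, while each hybrid overlapped B73. The means were 10591 ± 386 in B73xMo17, 10197 ± 602 in B73, 9567 ± 524 in Mo17xB73 and 8994 ± 435 in Mo17 (SD, n = 3). The highest signals of any probe set on the arrays ran from 16349 to 19963, above the deposited values of bt2 (8813 to 11643) and bt1 (8419 to 11010).

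**Figure D1:**
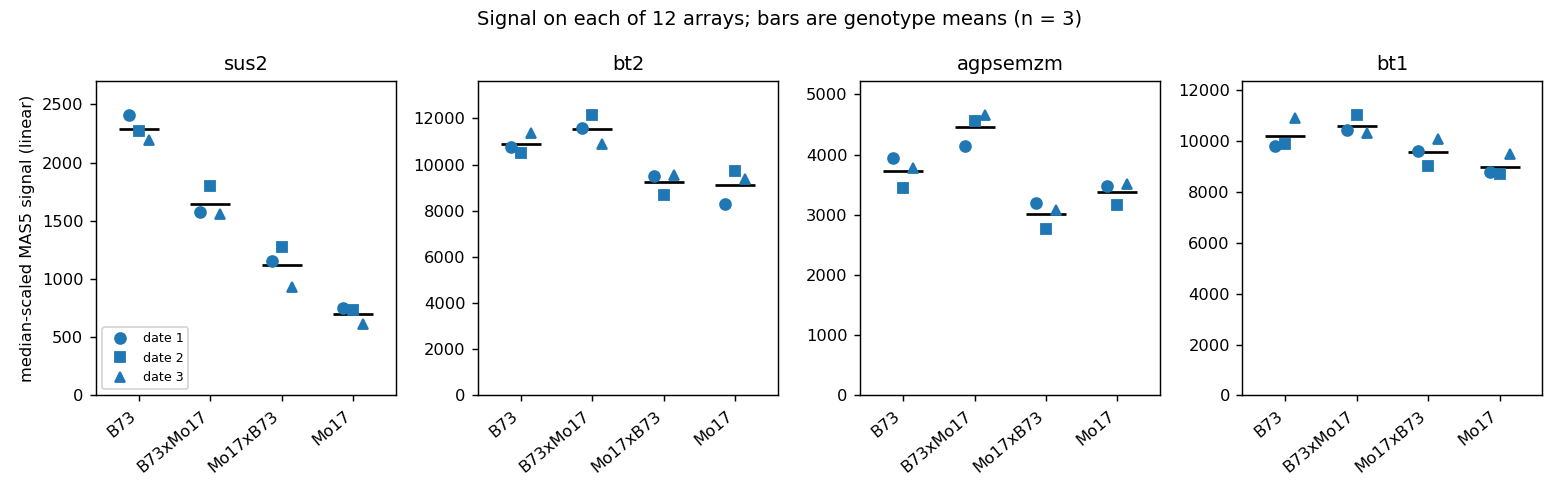
Scaled MAS5 signal of sus2, bt2, agpsemzm and bt1 by genotype, with 1 point per array and a horizontal line at the mean of 3 arrays. For sus2 the 4 genotypes are separate, from 610 to 750 in Mo17 up to 2194 to 2411 in B73, whereas for agpsemzm the 3 B73xMo17 arrays, at 4145 to 4664, stand above all others.

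Between the inbreds, 3 of the 4 genes were higher in B73 than in Mo17 and none was lower. The gene sus2 was 3.30-fold higher, a log2 difference of 1.72 ± 0.12 (SE; adjusted p = 8.63e-08, limma), and within the crossing dates the difference was 1.69, 1.63 and 1.85. The difference for bt2 was 0.26 ± 0.07 (1.19-fold, adjusted p = 0.00756, limma), and that for bt1 was 0.18 ± 0.06 (1.13-fold, adjusted p = 0.0255, limma). For agpsemzm it was 0.14 ± 0.08 and did not pass (adjusted p = 0.165, limma). Of all probe sets tested, 27.5% were called higher in B73 and 26.1% lower, so a call in this comparison was common. On the deposited values without scaling, sus2 was called (1.57), whereas bt2 and bt1 were not (0.11 with adjusted p = 0.424, and 0.03 with adjusted p = 0.842, limma), and quantile normalization and spike-in scaling also left sus2 alone called. The bt1 call was also lost without the intensity trend (adjusted p = 0.0688) and without B73 replicate 3 (0.13, adjusted p = 0.102), Mo17 replicate 1 (0.16, 0.0764) or Mo17 replicate 2 (0.16, 0.0856, limma).

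Between the reciprocal hybrids, 3 of the 4 genes were higher in B73xMo17 than in Mo17xB73, beside 15.3% of all tested probe sets called higher and 15.9% lower. The log2 difference of agpsemzm was 0.57 ± 0.08 (1.48-fold, adjusted p = 0.000355, limma), with 0.38, 0.72 and 0.60 within dates 1, 2 and 3. That of sus2 was 0.56 ± 0.12 (1.48-fold, adjusted p = 0.004, limma), with 0.45, 0.49 and 0.75 within dates. That of bt2 was 0.32 ± 0.07 (1.25-fold, adjusted p = 0.00434, limma), with 0.29, 0.49 and 0.19 within dates. For bt1 the difference of 0.15 ± 0.06 did not pass (adjusted p = 0.086, limma) and passed with crossing date as a block (adjusted p = 0.0463, limma); within dates it was 0.12, 0.29 and 0.04.

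**Figure D2:**
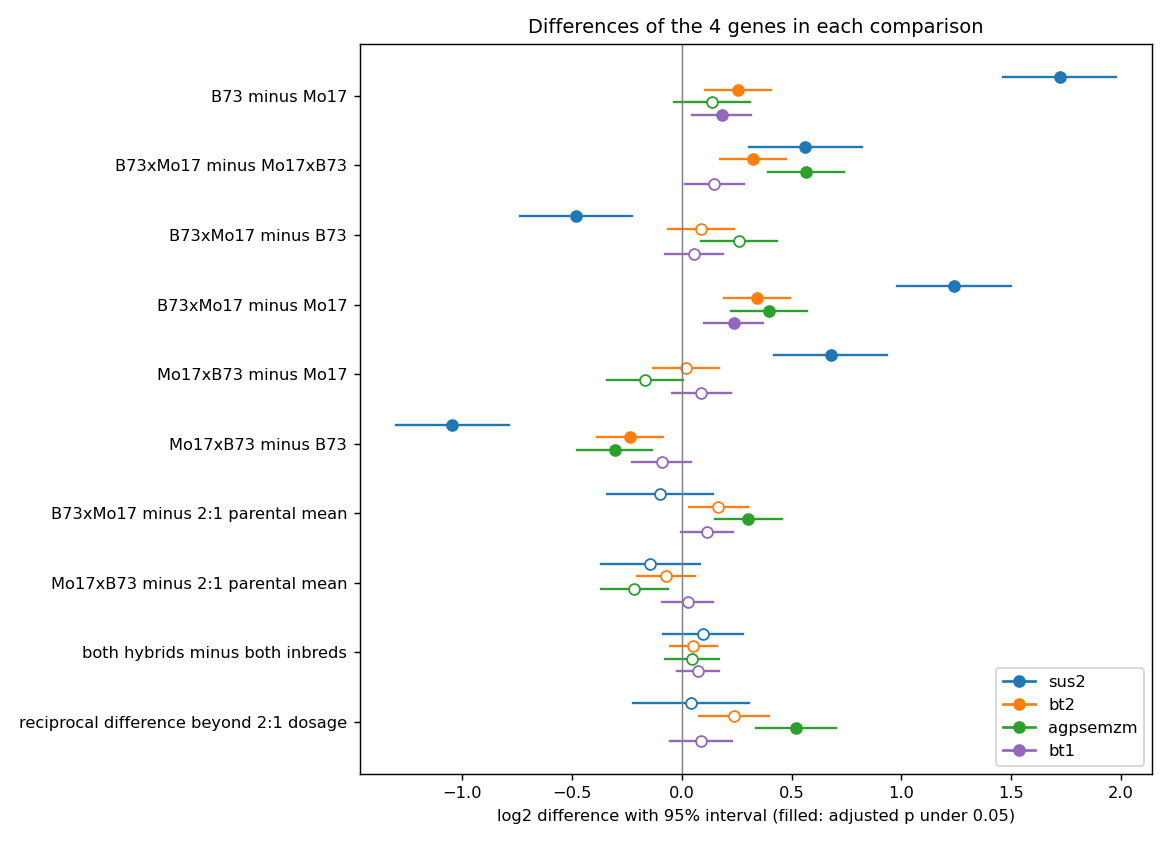
Log2 differences of the 4 genes in the comparisons of genotypes, with limma's 95% confidence intervals. The interval of sus2 lies far above 0 for B73 minus Mo17 (1.72), and agpsemzm has its highest value for B73xMo17 minus Mo17xB73 (0.57), where the inbred difference is 0.14.

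The size of the reciprocal difference depended on how the arrays were brought to one scale. On the deposited values none of the 4 genes was called, and agpsemzm alone had an unadjusted p under 0.05: sus2 differed by 0.33 (adjusted p = 0.13), bt2 by 0.09 (0.548), agpsemzm by 0.33 (0.0967) and bt1 by -0.09 (0.549, limma). Scaling by the hybridization spike-in controls, which was added after the data were seen, left agpsemzm called at 0.42 (adjusted p = 0.00752) and gave 0.42 for sus2 (0.0561), 0.18 for bt2 (0.152) and 0.00 for bt1 (0.989, limma). Without both dim B73xMo17 arrays, where the array left is assumed to vary like the other genotypes, agpsemzm differed by 0.63 (adjusted p = 0.00813), sus2 by 0.49 (0.0833), bt2 by 0.24 (0.114) and bt1 by 0.11 (0.42, limma). The gene agpsemzm was thus called on every scale tried but the deposited one.

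**Figure D3:**
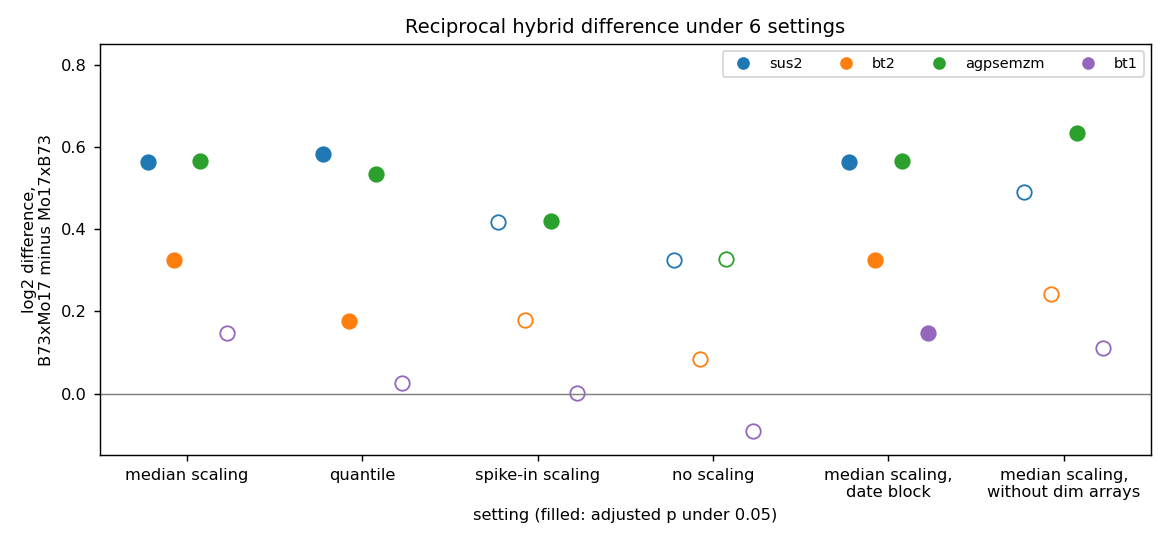
Log2 difference B73xMo17 minus Mo17xB73 of each gene under the main median scaling and the other ways of scaling or choosing the arrays, with filled symbols for adjusted p under 0.05. Between the deposited scale and the main median scaling agpsemzm moves from 0.33 to 0.57 and sus2 from 0.33 to 0.56, and bt1 crosses 0.

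The comparisons of hybrids with parents share arrays with one another and with those above. B73xMo17 was higher than Mo17 for all 4 genes, in a comparison where 25.2% of probe sets were called higher and 24.3% lower. The log2 differences were 1.24 for sus2 (adjusted p = 3.81e-06), 0.34 for bt2 (0.00147), 0.40 for agpsemzm (0.00141) and 0.24 for bt1 (0.00714, limma). On the deposited values sus2 alone passed (0.89), and bt2 and bt1 stood at -0.003 and -0.11. Without the dim arrays sus2 (1.17) and agpsemzm (0.46) passed, and bt2 (0.26, adjusted p = 0.0638) and bt1 (0.20, adjusted p = 0.112, limma) did not. The bt1 call was also lost under quantile normalization (0.06, adjusted p = 0.286) and spike-in scaling (0.18, adjusted p = 0.123, limma).

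Set against B73, the mother under the convention used, B73xMo17 was lower for sus2 alone, by -0.48 ± 0.12 (adjusted p = 0.0212, limma). In this comparison 6.07% of probe sets were called higher and 3.84% lower. The sus2 call was lost without the filter on dim probe sets (adjusted p = 0.0611), with spike-in scaling (0.0788) and without the dim arrays (0.128, limma). It was also lost when any of 4 single arrays was left out: B73 replicate 1 (-0.45, adjusted p = 0.0727), B73 replicate 2 (-0.49, 0.0616), B73xMo17 replicate 1 (-0.45, 0.0753) or B73xMo17 replicate 3 (-0.45, 0.0699, limma). The difference of agpsemzm, 0.26 ± 0.08, did not pass (adjusted p = 0.0609, limma) and passed with crossing date as a block (0.0165, limma). Those of bt2 (0.09, adjusted p = 0.502) and bt1 (0.06, adjusted p = 0.64, limma) did not pass.

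In the opposite cross, Mo17xB73 was lower than B73 for 3 of the 4 genes, beside 19.5% of probe sets called higher and 20.1% lower. The log2 difference was -1.05 for sus2 (adjusted p = 2.32e-05), -0.24 for bt2 (0.016) and -0.31 for agpsemzm (0.00859, limma), and it was -0.09 for bt1 (adjusted p = 0.259, limma). The deposited and the spike-in scales each kept sus2 called (-0.90 with spike-in scaling), with bt2 at -0.20 and -0.10 and agpsemzm at -0.26 and -0.16, none of which passed. The bt2 call was also lost under quantile normalization (-0.13, adjusted p = 0.0595) and without B73 replicate 3 (-0.21, adjusted p = 0.0586) or Mo17xB73 replicate 2 (-0.19, adjusted p = 0.0717, limma). Against Mo17, Mo17xB73 was higher for sus2 alone (0.68, adjusted p = 0.00191, limma), where 7.92% of probe sets were called higher and 3.14% lower. The values of bt2 (0.02), agpsemzm (-0.17) and bt1 (0.09) in that comparison did not pass (adjusted p = 0.913, 0.23 and 0.452, limma).

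The averages of hybrids and inbreds did not differ by the test for any of the 4 genes, in a comparison with 4.7% of probe sets called higher and 0.364% lower. The log2 differences were 0.10 for sus2 (adjusted p = 0.642), 0.05 for bt2 (0.673), 0.05 for agpsemzm (0.766) and 0.07 for bt1 (0.474, limma). For agpsemzm the 95% interval ran from -0.08 to 0.17, narrower than its difference between the hybrids. At an unadjusted p under 0.05 the count was also 0 of 4.

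A hybrid with 2 copies from its mother and 1 from its father would, if each copy gave what it gives in its inbred, lie at the 2:1 weighted mean of the parents. For sus2 neither hybrid departed from that mean by the test: B73xMo17 lay at -0.10 ± 0.11 (95% interval -0.34 to 0.14, adjusted p = 0.632) and Mo17xB73 at -0.14 ± 0.10 (-0.37 to 0.08, adjusted p = 0.717, limma). These intervals leave room for departures of either hybrid below the mean. Expressed as the share of the way from Mo17 up to B73, sus2 stood at 0.596 ± 0.098 in B73xMo17 and at 0.266 ± 0.079 in Mo17xB73 (SD over 3 dates), where copy number alone gives 0.667 and 0.333. On dates 1, 2 and 3 the share was 0.497, 0.692 and 0.599 in B73xMo17 and 0.244, 0.354 and 0.201 in Mo17xB73, so each hybrid had values on both sides of its copy-number share and the hybrids did not overlap. Against the geometric 2:1 mean of the parents, in place of the arithmetic one, the departures of sus2 turned to 0.09 in B73xMo17 (adjusted p = 0.622) and 0.10 in Mo17xB73 (0.774, limma). If the male parent were written first, sus2 in B73xMo17 would lie 0.42 above its dosage mean.

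**Figure D4:**
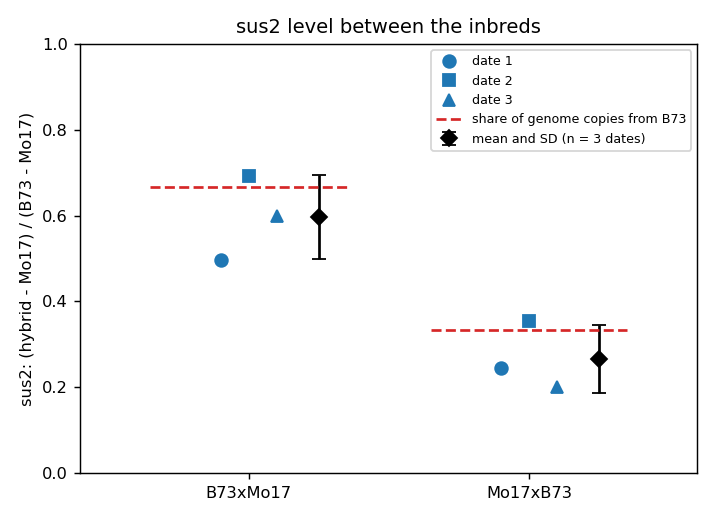
Share of the inbred difference of sus2 reached by each hybrid on each crossing date (0 is Mo17, 1 is B73), with mean and SD and the share given by copy number. B73xMo17 spans 0.497 to 0.692 around 0.667 and Mo17xB73 spans 0.201 to 0.354 around 0.333.

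The same share could not be read for the other genes called between the inbreds, since their parents lay close together: it was 1.747 ± 1.238 in B73xMo17 and -0.266 ± 0.976 in Mo17xB73 for bt2, and 1.382 ± 0.706 and 0.496 ± 0.283 for bt1. On the log2 scale, bt2 lay 0.17 ± 0.06 above the dosage mean in B73xMo17 (adjusted p = 0.136) and bt1 0.11 above it (0.239, limma), and neither passed. In Mo17xB73 the corresponding values were -0.07 for bt2 (adjusted p = 0.784) and 0.03 for bt1 (0.942, limma).

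The gene agpsemzm was the only one of the 4 called away from the dosage mean. In B73xMo17 it lay 0.30 ± 0.07 above it (adjusted p = 0.0341, limma), where 1.31% of all probe sets were called above and 2.89% below. In Mo17xB73 it lay at -0.22 ± 0.07, which did not pass (unadjusted p = 0.00886, adjusted p = 0.215, limma), in a comparison with 0.495% of probe sets called above and 0.43% below. The B73xMo17 departure fell to 0.06 on the deposited scale (adjusted p = 0.73) and was 0.37 without the dim arrays (adjusted p = 0.19, limma). It was also not called without the filter (adjusted p = 0.0677), without the intensity trend (0.0616), with spike-in scaling (0.113) or without B73 replicate 2 (0.0882), B73 replicate 3 (0.0555), Mo17 replicate 2 (0.0603), Mo17 replicate 3 (0.0519) or any single B73xMo17 array (0.0587 to 0.115, limma).

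Set against each other, the reciprocal hybrids of agpsemzm differed by 0.52 ± 0.08 more than the parental levels in 2:1 dosage give (95% interval 0.34 to 0.70, adjusted p = 0.00339, limma). This comparison was added after the values were seen. Over all probe sets it called 3.54% higher and 4.31% lower. Within dates 1, 2 and 3 the excess was 0.32, 0.68 and 0.56, so its sign was the same on each date. It was called in 22 of 23 alternatives, among them spike-in scaling (0.39, adjusted p = 0.0377) and without the dim arrays (0.59, adjusted p = 0.043), and was not called on the deposited scale (0.33, adjusted p = 0.183, limma). For bt2 the excess was 0.24 ± 0.07, which did not pass (adjusted p = 0.0662, limma) and passed with crossing date as a block (0.0395, limma). For sus2 it was 0.04 ± 0.12 (95% interval -0.22 to 0.31, adjusted p = 0.868, limma), and for bt1 0.09 (adjusted p = 0.441, limma).

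Among other genes of sucrose supply and sugar phosphate conversion, 8 of the 11 present on the array were tested, out of 31 names listed. In B73 against Mo17, 2 were higher, 2 were lower and 4 did not pass, with a median difference of 0.22 beside 0.01 over all probe sets. Over all probe sets, 27.5% were called higher in that comparison and 26.1% lower. The fructokinase gene frk2 was higher in B73 (0.95 ± 0.11, adjusted p = 7.48e-06), as was phi1, a phosphohexose isomerase gene (0.22, adjusted p = 0.0478, limma). A further sucrose synthase gene, sus1, was lower in B73 (-0.39 ± 0.11, adjusted p = 0.0118), opposite to sus2, and so was sut1, a sucrose transporter gene (-0.95 ± 0.25, adjusted p = 0.00718, limma). The brightest of 3 probe sets for sh1, the major endosperm sucrose synthase gene, did not pass (0.22 ± 0.09, adjusted p = 0.0576), whereas its others gave 0.42 (0.00354) and 1.23 (0.00605, limma). Between the reciprocal hybrids none of the 8 was called by limma, and 2 (sut1 and frk1) had an unadjusted p under 0.05, although another sh1 probe set than the brightest passed (0.29, adjusted p = 0.0474, limma). Over all probe sets, 15.3% were called higher between the hybrids and 15.9% lower. On the deposited values the list had 1 gene higher and 3 lower between the inbreds (median 0.07), and between the hybrids 0 higher and 2 lower (median -0.36), sus1 (-0.48, adjusted p = 0.0133) and sut1 (-0.88, 0.00766, limma). Over all probe sets that scale called 1635 higher and 3053 lower between the inbreds, and 393 and 2780 between the hybrids. The cell wall invertase gene mn1, expressed in the basal transfer layer and also a cleaver of sucrose, varied more by date than any member did, with 312.3, 8.668 and 72.86 in B73 and 1158, 133.7 and 863.6 in Mo17 on dates 1, 2 and 3. Its inbred difference of -2.88 ± 1.26 did not pass (adjusted p = 0.0707, limma).

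Of 19 names of ADP-glucose pyrophosphorylase subunits and plastid carriers outside the 4 genes, 4 were on the array and tested. In B73 against Mo17, 3 were higher: sh2, the endosperm large subunit gene (0.26, adjusted p = 0.00553), AGP2 (0.46 ± 0.12, 0.00565) and the phosphate translocator gene ppt1 (0.15, 0.0442, limma). Of all probe sets, 27.5% were called higher in that comparison and 26.1% lower. Between the hybrids, sh2 (0.29, adjusted p = 0.00673) and AGP2 (0.95 ± 0.12, 0.000183, limma) were higher in B73xMo17, the same direction as bt2 and agpsemzm. There, 15.3% of all probe sets were called higher and 15.9% lower. On the deposited values 0 of the 4 were called between the inbreds and 1 between the hybrids. All probe sets on that scale gave 1635 higher and 3053 lower between the inbreds, and 393 and 2780 between the hybrids. The symbol AGP2 is used for a gene of this enzyme, and here it stands for LOC542737, since RefSeq also gives it as a synonym of agpsemzm. Its signal was 1693, 2101 and 2118.7 in B73xMo17, and 1112.8, 990.54 and 951.3 in Mo17xB73. In B73 it was 1475.1, 1642.8 and 1730.7, and in Mo17 it was 1341.6, 1012 and 1173.4, so 2 of 3 arrays of each hybrid lay outside the range of the inbreds. Its excess over 2:1 dosage was 0.79 ± 0.13 (adjusted p = 0.00315), 0.61 on the deposited scale (0.0555) and 0.91 without the dim arrays (0.0316, limma).

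Downstream, 7 of 10 starch polymer genes on the array were tested, out of 30 names. The name ae1 led to LOC541992, too dim to be tested, and to LOC542238, which is the ae1 described here, and each was counted as a gene. Between the inbreds 4 were higher in B73 and none lower, with a median of 0.16 beside 0.01 over all probe sets. Of all probe sets, 27.5% were called higher there and 26.1% lower. The 4 were wx1, the granule-bound starch synthase gene (1.11), the debranching enzyme gene zpu1 (0.80), the starch synthase gene ss1 (0.47) and the branching enzyme gene ae1 (0.16). Between the hybrids 3 were higher in B73xMo17 and none lower, namely wx1 (0.66, adjusted p = 0.00959), ss1 (0.46, 0.00218) and ae1 (0.21, 0.0153, limma). The median was 0.36 beside 0.01 over all probe sets, of which 15.3% were called higher and 15.9% lower. The other tested ae1 probe set passed neither between the inbreds (0.33, adjusted p = 0.162) nor between the hybrids (0.39, adjusted p = 0.142, limma). On the deposited values these counts became 2 higher between the inbreds and 0 between the hybrids. The transcription factor genes o2 (3.78), ohp1 (1.76) and PBF (0.49), known as regulators of endosperm genes, were higher in B73 than in Mo17, and ohp2 (-0.24) was lower. The o2 value is from the brighter of 2 probe sets, and the other did not pass (0.44, adjusted p = 0.152, limma). Between the hybrids o2 (0.805, adjusted p = 0.0228), ohp1 (0.44, 0.00196) and PBF (0.31, 0.0117, limma) were higher in B73xMo17. In the same comparison ohp2 (-0.27, adjusted p = 0.0439) was lower, and the other o2 probe set did not pass (0.39, 0.253, limma). On the deposited values 0 of these 4 genes were higher between the hybrids and 1 was lower. For this paragraph's deposited counts, all probe sets gave 1635 higher and 3053 lower between the inbreds, and 393 and 2780 between the hybrids.

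**Figure D5:**
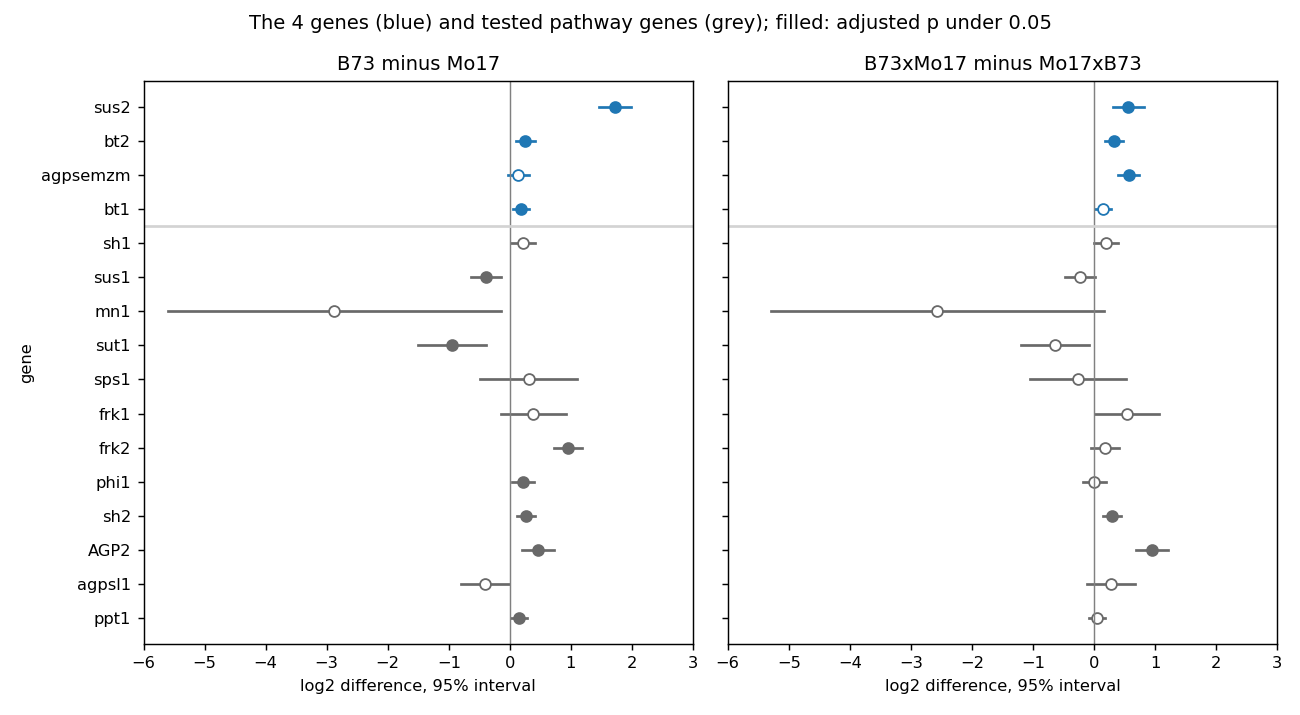
Log2 differences of the 4 genes and of the tested genes of the sucrose and ADP-glucose lists, for B73 minus Mo17 and for B73xMo17 minus Mo17xB73. The value of sus2 is 1.72 between the inbreds and 0.56 between the hybrids, while AGP2 (0.95) and agpsemzm (0.57) are high between the hybrids.

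The named genes whose scaled log2 signal followed each member most closely over the 12 arrays are given as a description, with 4 genotypes and 3 dates behind each coefficient and no test. For sus2 they were PP2C (Pearson r = 0.98), b3gat3 (0.979), CRS2 (0.979), sig3 (0.978) and PLTP (0.974). For bt2 the closest was sh2 (0.934), which encodes the partner subunit, followed by tif-4A3 (0.91), C4ppdkZm1 (0.9), tha9 (0.895) and cks (0.894). The gene C4ppdkZm1 is the one named ppdk1 above. For agpsemzm they were sbip1b (0.94), akh2 (0.929), cks (0.921), AGP2 (0.918) and L29 (0.893). For bt1 they were ubc7 (0.964), eno1 (0.954), PIP2-1 (0.95), ae1 (0.94) and sh1 (0.936). All arrays share their scaling factors with the genes compared, which alone can raise such coefficients.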

How the data were processed

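The authors deposited 1 table of MAS5 intensity on a linear scale, per the submitters' processing notes, from 8 ug of total RNA labelled with biotin. Of the scaling target and of any filter, nothing is given in the sources used here. Probe sets were named from the platform annotation, where 1452 had 1 gene, and updated through RefSeq (Zm-B73-REFERENCE-NAM-5.0), which was used for names only. Of 17734 probe sets, 113 controls were left out. Medians of probe sets above the pooled 40th percentile were made equal, scaled signal under the 20th percentile (14.8) was raised to it, and probe sets with a mean above 71.8 were tested (10708 of 17621).

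A model of 4 genotype means without a block was fitted to log2 values of all 12 arrays in R 4.3.3 with limma 3.58.1 (trend, 8 residual degrees of freedom). Calls required a two-sided p, adjusted by Benjamini-Hochberg over all 10708 probe sets, under 0.05. Dosage comparisons used the delta method. The pipeline was tested on simulated data. Replicate numbers pair the arrays, per the growth protocol in the labels, which ties biological replicates to crossing dates. Deviations of arrays from their genotype mean correlated at 0.389, 0.375 and 0.424 for arrays sharing number 1, 2 and 3. The 3 deviations of a genotype sum to 0. The mean of -0.199 for different numbers therefore largely follows from those values and is no separate evidence of pairing. With 3 arrays a genotype, array number limits precision.

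The members and gene lists were chosen with earlier results of these data known. All probe sets annotated with a member gene alone are named, and each listed gene is represented by its brightest probe set. For genes of the sucrose, ADP-glucose, starch polymer and regulator lists, the text gives those called between the inbreds or the hybrids. Other probe sets of the same gene are given where their calls differ, and the 5 named genes with the highest correlation are given per member. Alternatives were the deposited scale, quantile and spike-in scaling, other floors, filters and variance settings, the date block, omitted arrays and exchanged dosage weights.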

Additional observations from a re-analysis of the deposited data

Results flagged for a closer look

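The excess of the reciprocal difference over 2:1 dosage was 0.52 (log2) for agpsemzm and 0.794 for AGP2. On the median scale the test of that excess passed for both. The comparison was added after the values were seen, and it rests on the convention that the female parent is written first. The agpsemzm value was lower on crossing date 1 (0.32) than on dates 2 (0.68) and 3 (0.56), and on the deposited scale neither gene passed (0.33 and 0.61).

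The average of both hybrids lay above that of both inbreds for the regulator genes o2 (1.167 ± 0.169, adjusted p = 0.000632) and ohp1 (0.266 ± 0.058, adjusted p = 0.0154, limma). This is a contrast on the log2 scale, on which a hybrid at the arithmetic 2:1 mean of parents that lie far apart stands above their log2 average. Neither gene departed from the 2:1 mean by the test: o2 lay at 0.21 in B73xMo17 (adjusted p = 0.63) and 0.26 in Mo17xB73 (0.791), and ohp1 at -0.008 (0.964) and 0.08 (0.8, limma). The other o2 probe set did not pass between hybrids and inbreds (0.18, adjusted p = 0.701, limma). On the deposited scale o2 passed (1.02, adjusted p = 0.00127) and ohp1 did not (0.12, adjusted p = 0.483, limma), and without the dim arrays ohp1 did not pass (0.31, adjusted p = 0.0532, limma).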

How the results depend on the processing

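Of 864 values of the 4 genes under the alternatives, 767 kept their direction and their side of the threshold, 49 lost a call, 13 gained one and 35 changed sign, of which 32 were called on neither side. The number of the 4 genes called in B73 against Mo17 fell from 3 to 1 on the deposited scale, under quantile normalization and with spike-in scaling, and was 2 to 3 when single arrays were left out. For B73xMo17 minus Mo17xB73 it fell from 3 to 0 on the deposited scale and to 1 with spike-in scaling or without the dim arrays. For B73xMo17 minus Mo17 it fell from 4 to 1 on the deposited scale and to 2 without the dim arrays. For Mo17xB73 minus B73 it fell from 3 to 1 on the deposited and spike-in scales. Over all probe sets, B73xMo17 minus Mo17xB73 called 1642 higher and 1700 lower. On the deposited scale it called 393 and 2780, and with spike-in scaling 655 and 2412. For B73 minus Mo17, 2946 and 2795 became 1635 and 3053 deposited, 2203 and 2828 with spike-in scaling and 2686 and 3010 under quantile normalization. On the deposited scale B73xMo17 minus Mo17 went from 2694 and 2602 to 994 and 4852. Mo17xB73 minus B73 went there from 2093 and 2148 to 1644 and 1183. For B73xMo17 minus B73 the count of 1 became 2 under quantile normalization and with the replicate block, and 0 with spike-in scaling, without the filter and without the dim arrays, with 0 to 2 when single arrays were left out. For B73xMo17 against the dosage mean the count of 1 became 0 on the deposited and spike-in scales, without the filter, without the trend and without the dim arrays, with 0 to 1 when single arrays were left out. The excess over dosage was called for 1 gene, for 0 on the deposited scale, for 2 with the replicate block and for 1 to 2 when single arrays were left out. Over all probe sets, B73xMo17 minus B73 called 650 higher and 411 lower, against 474 and 244 with spike-in scaling. B73xMo17 against the dosage mean called 140 and 309, against 32 and 2507 on the deposited scale. The excess called 379 and 462, against 74 and 773 deposited and 1015 and 1239 with the replicate block.

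With dosage weights exchanged, as if the male were written first, the 3 dosage counts became 4 for B73xMo17, 2 for Mo17xB73 (from 0) and 4 for the excess, and sus2 in B73xMo17 reversed to 0.419. On the deposited scale bt2 (-0.003) and bt1 (-0.109) reversed for B73xMo17 minus Mo17. The other 32 sign changes were of values not called. On the deposited scale they were agpsemzm in B73 minus Mo17 (-0.013), bt1 in B73xMo17 minus Mo17xB73 (-0.091), bt2 (-0.11) and bt1 (-0.14) in B73xMo17 minus B73, and bt2 (-0.088) and bt1 (-0.019) in Mo17xB73 minus Mo17. Against the dosage mean they were bt2 (-0.075) and bt1 (-0.13) in B73xMo17 and bt1 (-0.029) in Mo17xB73, and for the excess sus2 (-0.157) and bt1 (-0.101). For hybrids minus inbreds all 4 turned: sus2 (-0.054), bt2 (-0.099), agpsemzm (-0.107) and bt1 (-0.079). Spike-in scaling turned bt1 in Mo17xB73 minus B73 (0.05), bt2 in Mo17xB73 against dosage (0.034), and sus2 (-0.089) and bt1 (-0.039) in the excess. Quantile normalization turned bt2 in Mo17xB73 minus Mo17 (-0.045) and bt1 in Mo17xB73 minus B73 (0.021). The geometric mean turned sus2 in B73xMo17 (0.092), in Mo17xB73 (0.103) and in the excess (-0.011), exchanged weights bt1 in Mo17xB73 (-0.034), and leaving out the dim arrays sus2 in the excess (-0.03). Leaving out single arrays gave -0.05 to 0.067 for bt2 in Mo17xB73 minus Mo17, -0.012 to 0.067 for bt1 in Mo17xB73 against dosage and -0.086 to 0.143 for the sus2 excess.

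The sus2 share in B73xMo17 was 0.449 on the deposited scale and 0.72 on the log2 scale, and in Mo17xB73 it was 0.396 on the log2 scale. The replicate block changed no call other than those named for bt1, bt2 and agpsemzm. Except where the alternative removed arrays or tests, the cause was not tested. The sus2 differences between the inbreds, of B73xMo17 from Mo17 and of Mo17xB73 from both parents were called in every alternative run.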
